A study of Mus musculus with 12 samples.

Results

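Succinate dehydrogenase (SDH), or mitochondrial complex II, oxidizes succinate to fumarate in the TCA cycle and passes the electrons to ubiquinone in the respiratory chain. SDHA carries the flavin and the succinate site, SDHB the iron-sulfur clusters, and SDHC and SDHD anchor the enzyme in the inner membrane, where they hold a heme and the ubiquinone site. Every subunit is encoded in the nucleus. SDHAF2 attaches the flavin to SDHA, SDHAF4 binds the flavin-bearing SDHA and hands it to SDHB, and SDHAF1 and SDHAF3 act on the iron-sulfur subunit.

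The mRNAs of the 4 subunits and the 4 assembly factors were examined in ventricular wall tissue, the 8 genes being the rows of the table whose gene name is Sdha, Sdhb, Sdhc, Sdhd, Sdhaf1, Sdhaf2, Sdhaf3 or Sdhaf4, among 43686 rows in all. RNA-seq of poly-A mRNA was available from 6 WT hearts, which are labelled wild type and, by the study's methods, come from Sdhaf4 fl/fl littermates without Cre, and from 6 KO hearts, which are labelled Sdhaf4-/- and come from Sdhaf4 fl/fl mice with the Ckmm-Cre transgene. Both groups therefore carry the floxed alleles, are labelled C57BL/6 and are given as 2 months old in the labels, while the results text of the study names a younger age for these hearts and its reporting summary an age that fits the labels among others. The muscle creatine kinase promoter drives Cre in cardiac and skeletal muscle, so other cells of the ventricular wall are not targeted, and no Cre-only group was among these samples. The loxP sites flank exons 1 and 2 of Sdhaf4, so reads on the rest of the gene can still be counted in KO.

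Each library held between 23747014 and 31393393 counted reads, and each member passed the filter on low counts. Of the cardiomyocyte markers, 12 of 13 were in the table, and the 12 together took 68065 to 74530 CPM (counts scaled to the library total with edgeR's TMM factors) in WT and 58604 to 80315 in KO. The cardiomyocyte transcripts that define the labelled tissue were thus present. Of the 4 atrial markers, Sln and Myl7 had 8 and 27 reads in all 12 libraries together, and Myl4 and Nppa summed to 158 to 409.7 CPM in WT and 7403 to 15658 CPM in KO. The log2 fold changes of Myl4 and Nppa lay far apart, at 0.72 and 5.65 from the smaller to the larger. The log2 ratio of the mean sums, 5.64, was close to the larger. In TMM-scaled CPM, WT replicate 6 had the lowest value of the WT hearts in 7 of the 8 members. KO replicate 3 had the highest value of the KO hearts in 6 of them. With library totals alone, WT replicate 6 was not the lowest for Sdhd and Sdhaf3. Nor was KO replicate 3 then the highest for Sdhaf2 and Sdhaf3. Values without each of these 2 libraries are given below where they matter.

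Transcripts of 3 of the 4 SDH subunits and of 2 of the 4 assembly factors were lower in the KO hearts, and that of 1 assembly factor, Sdhaf2, was slightly higher by a call that was lost in 12 of 22 alternatives. Sdha, Sdhb and Sdhc were lower by 27.2%, 25.9% and 21.9% in the fit, Sdhaf3 by 19.4%, and Sdhaf4, the targeted gene, by 90.5%. Sdhd and Sdhaf1 did not pass the test. Each row was tested with edgeR's quasi-likelihood method, the p-values of the 17155 rows kept were adjusted together, and a gene was called at an adjusted p under 0.05. By this rule 5 of the 8 genes were lower and 1 was higher, where 25.5% of all rows tested were lower and 25.6% higher. In the same 5 genes every KO library lay below every WT library, as it did in 15.2% of all rows. By the stricter rule of the study's methods, an adjusted p under 0.005 and a log2 fold change beyond 1 in size, Sdhaf4 was the 1 member called, and 10.2% of all rows were.

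**Figure D1:**
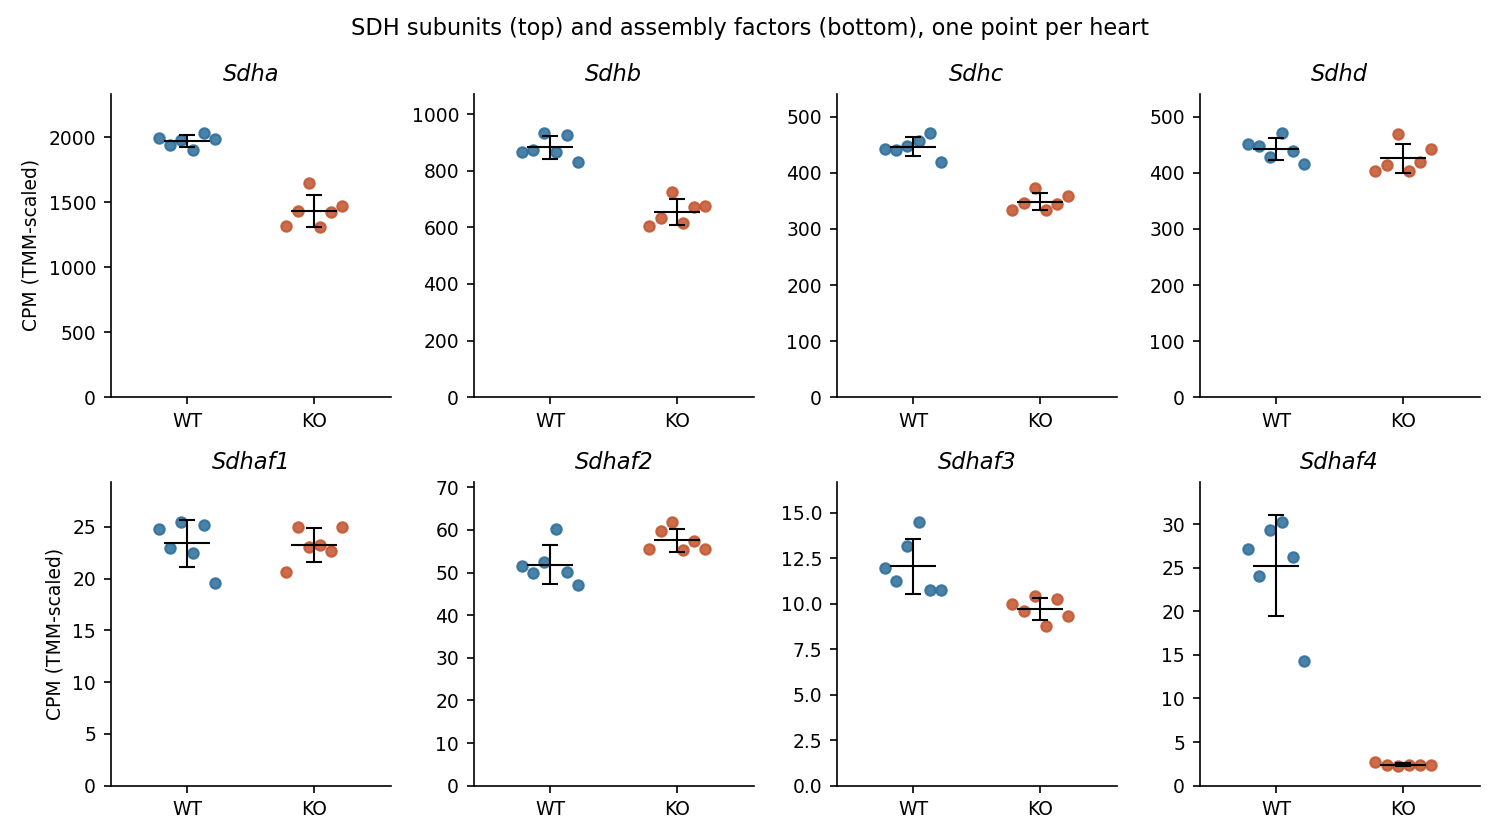
CPM with TMM scaling (y axes start at 0) in WT (blue) and KO (orange) hearts, 1 point per heart, with the mean (horizontal bar) and SD (n = 6 per group). The KO points lie below the WT points for Sdha, Sdhb, Sdhc, Sdhaf3 and Sdhaf4, and the groups overlap for Sdhd, Sdhaf1 and Sdhaf2.

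Sdha (MGP_C57BL6NJ_G0021153) lies on chromosome 13, 77303325 to 77333605, minus strand, in the C57BL/6NJ assembly to which the table's identifiers belong. Its level ranged from 1903 to 2030.4 CPM in WT (median 1980.2) and from 1309 to 1646 CPM in KO (median 1430.1). The groups were separate, and the KO heart nearest to WT was replicate 3, with the highest of the KO values. The mean ± SD of 6 hearts was 1970.4 ± 44.7 CPM in WT and 1434 ± 123 CPM in KO, and the log2 fold change was -0.46 with a standard error of 0.06 (edgeR, adjusted p = 7.21e-06). Without KO replicate 3 the log2 fold change was -0.51.

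Sdhb (MGP_C57BL6NJ_G0029457; chromosome 4, 149004666 to 149027146, plus strand) ranged from 829 to 933 CPM in WT (median 871) and from 603 to 725 CPM in KO (median 652). Again no KO heart reached the WT range. The mean ± SD of 6 hearts was 883 ± 40.1 CPM in WT and 654 ± 45.8 CPM in KO, and the log2 fold change was -0.43 with a standard error of 0.06 (edgeR, adjusted p = 6.64e-06).

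Sdhc (MGP_C57BL6NJ_G0017144; chromosome 1, 182787069 to 182810856, minus strand) ranged from 419.9 to 471 CPM in WT (median 445) and from 334 to 374 CPM in KO (median 345). The groups were separate here too. On average Sdhc was at 446 ± 17.2 CPM in WT and 348 ± 15.3 CPM in KO (SD, n = 6), and the log2 fold change was -0.36 with a standard error of 0.05 (edgeR, adjusted p = 8.05e-06).

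Sdhd (MGP_C57BL6NJ_G0035274; chromosome 9, 50872290 to 50879801, minus strand), which encodes the other membrane anchor, ranged from 416 to 471 CPM in WT (median 444) and from 403 to 469.9 CPM in KO (median 417). The ranges of the groups were almost the same. The mean ± SD of 6 hearts was 442 ± 19.3 CPM in WT and 426 ± 26.1 CPM in KO, and the log2 fold change was -0.05 with a standard error of 0.05 (edgeR, adjusted p = 0.402). Its 95% interval, from -0.16 to 0.05, does not reach the fitted change of any other subunit. Without KO replicate 3 the value was -0.09 (adjusted p = 0.118).

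For Sdha, Sdhb and Sdhc the two-sided exact permutation test of the mean CPM gave p = 0.00216, the smallest value that 6 hearts against 6 allow, and for Sdhd it gave p = 0.236. The coefficient of variation of Sdha was 8.58% in KO, or 5.30% without KO replicate 3, and 2.27% in WT, and that of Sdhc was 4.40% in KO and 3.86% in WT; the difference in spread was not tested.

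**Figure D2:**
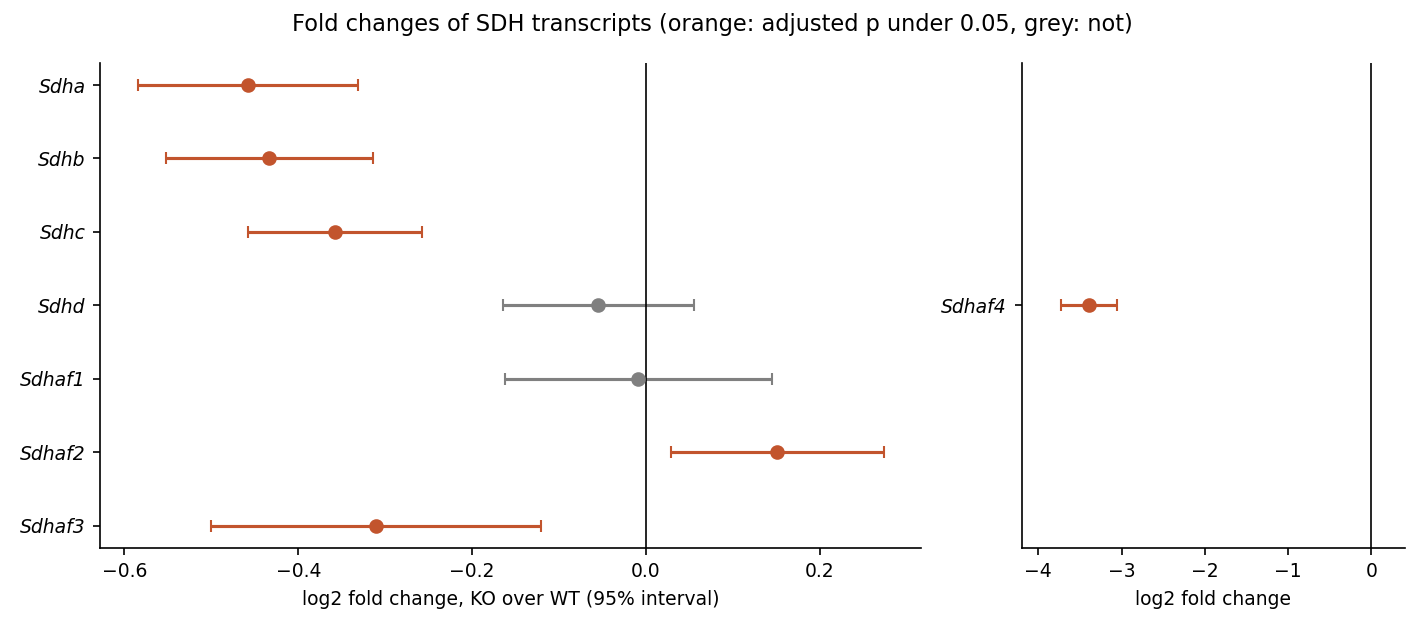
Log2 fold change of KO over WT (x axis) with its 95% interval from edgeR's fit for each gene, Sdhaf4 on a scale of its own; orange marks an adjusted p under 0.05. The intervals of Sdha, Sdhb and Sdhc lie below -0.25, and those of Sdhd and Sdhaf1 include 0.

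Whether the subunits changed to different degrees was tested on the ratio of their read counts within each heart, which needs no scaling between libraries. The 6 pairs were compared after the fold changes had been seen, with p-values adjusted over the 6. In WT there were 4.46 ± 0.263 reads on Sdha for each read on Sdhd, and in KO 3.37 ± 0.108 (SD, n = 6 in each group). The ratio of Sdhb to Sdhd went from 2.00 ± 0.126 to 1.53 ± 0.0359, and that of Sdhc to Sdhd from 1.01 ± 0.0412 to 0.819 ± 0.0151. In each of these 3 pairs no KO heart reached the WT range. On the log2 scale the differences of KO from WT were -0.41, -0.38 and -0.30, each with an adjusted p = 0.00433 (two-sided exact permutation test).

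Among Sdha, Sdhb and Sdhc the differences were smaller. The log2 ratio of Sdha to Sdhb differed by -0.03 (95% interval -0.09 to 0.04, adjusted p = 0.392, exact permutation test), and the groups overlapped. Sdhc fell somewhat less than the other called subunits. The log2 ratio of Sdha to Sdhc differed by -0.10 (95% interval -0.18 to -0.03) and that of Sdhb to Sdhc by -0.08 (-0.13 to -0.02), both with overlapping groups and an adjusted p = 0.0208 in the exact permutation test. Without KO replicate 3 the 2 differences were -0.12 and -0.09.

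**Figure D3:**
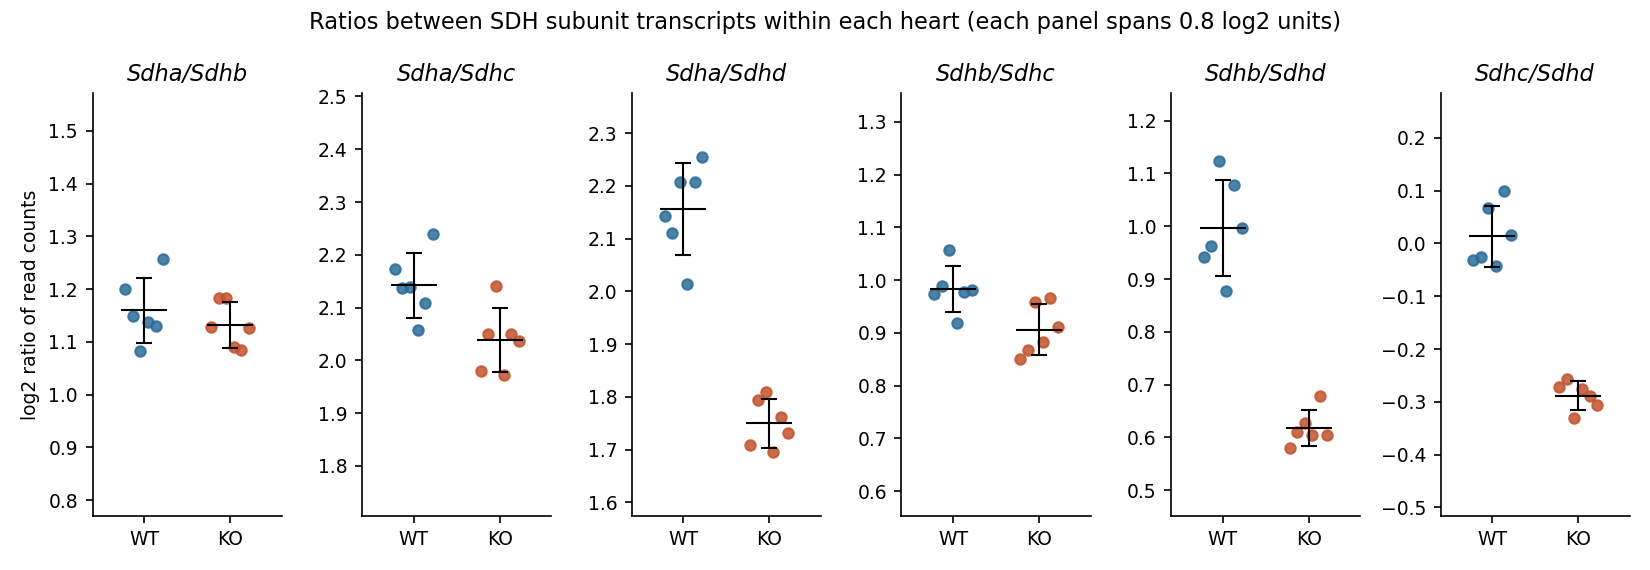
Log2 ratio of the read counts of each pair of subunits (y axes, each spanning 0.8 log2 units and not starting at 0) in WT (blue) and KO (orange) hearts, 1 point per heart, with mean and SD (n = 6 per group). The 3 ratios over Sdhd are separate between the groups, with differences of -0.41, -0.38 and -0.30, and the ratio of Sdha to Sdhb overlaps.

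Of the assembly factors, Sdhaf4 (MGP_C57BL6NJ_G0016278; chromosome 1, 22811495 to 22821212, minus strand) had between 63 and 85 reads in each KO library and between 374 and 762 in each WT library. In CPM the WT hearts ranged from 14.3 to 30.3 (median 26.7) and the KO hearts from 2.25 to 2.73 (median 2.35). WT replicate 6, at 14.3 CPM, had 52.1% of the mean of the other 5 WT hearts (27.4 ± 2.48 CPM) and still lay far above the KO hearts. Whether the genotype of this heart matches its label was not tested. The log2 fold change was -3.39 with a standard error of 0.16 (edgeR, adjusted p = 1.95e-10) and -3.51 without WT replicate 6. The KO hearts kept 9.52% of the WT mean, or 8.76% of the mean without that library. The reads come from tissue that holds several cell types, and fewer cells of a type and less RNA per cell cannot be told apart in bulk RNA. A row without a gene name on the plus strand shares 152 bases with Sdhaf4 and had 75 reads in all libraries together, too few to be tested. Whether the counting used strand is not given in the sources used here.

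Sdhaf3 (MGP_C57BL6NJ_G0030879; chromosome 6, 3972818 to 4066827, plus strand) ranged from 10.7 to 14.5 CPM in WT (median 11.6) and from 8.76 to 10.4 CPM in KO (median 9.78). The groups were separate by a narrow margin. The mean ± SD of 6 hearts was 12.1 ± 1.502 CPM in WT and 9.72 ± 0.615 CPM in KO, and the log2 fold change was -0.31 with a standard error of 0.09 (edgeR, adjusted p = 0.00807). For Sdhaf3 and Sdhaf4 the exact permutation p was again the smallest possible, 0.00216.

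Sdhaf2 (MGP_C57BL6NJ_G0025262; chromosome 19, 8193783 to 8228756, minus strand) ranged from 47.0 to 60.3 CPM in WT (median 50.8) and from 55.2 to 61.9 CPM in KO (median 56.5). The KO hearts lay above 5 of the 6 WT hearts and overlapped with the remaining WT heart, replicate 4. The mean ± SD of 6 hearts was 51.9 ± 4.53 CPM in WT and 57.6 ± 2.74 CPM in KO, and the log2 fold change was 0.15 with a standard error of 0.06 (edgeR, adjusted p = 0.0381, exact permutation p = 0.0281). When 1 library at a time was left out, this call was lost in 8 of 12 fits, and the adjusted p was 0.0926 without WT replicate 6 and 0.0916 without KO replicate 3.

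Sdhaf1 (MGP_C57BL6NJ_G0032464; chromosome 7, 30258271 to 30260760, minus strand) ranged from 19.5 to 25.5 CPM in WT (median 23.9) and from 20.6 to 25.0 CPM in KO (median 23.1). The values of the groups were mixed. Averaged over 6 hearts, it was at 23.4 ± 2.26 CPM in WT and 23.2 ± 1.63 CPM in KO (SD), and the log2 fold change was -0.01 with a 95% interval from -0.16 to 0.14 (adjusted p = 0.932 from edgeR, exact permutation p = 0.922). Most of the Sdhaf1 span, 1733 bases, is shared with E130208F15Rik on the opposite strand, which was at 5.56 ± 0.630 CPM in WT and 5.35 ± 0.953 CPM in KO (log2 fold change -0.05, adjusted p = 0.752), so reads there may come from either of them.

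Levels can be compared between the 8 genes only per length. In the deposited FPKM (fragments scaled to gene length and library total), the WT hearts had 2634 ± 70.2 for Sdha, 769 ± 25.1 for Sdhb, 343 ± 13.8 for Sdhd and 315 ± 7.07 for Sdhc (SD, n = 6). The assembly factors were lower by far. Sdhaf4 was at 45.3 ± 9.89 FPKM, Sdhaf2 at 16.7 ± 1.30, Sdhaf1 at 9.37 ± 0.776 and Sdhaf3 at 4.55 ± 0.528. No neighbours in this order overlapped in their WT ranges. In KO the subunits kept the order, and Sdhaf4, at 4.33 ± 0.361 FPKM, came after Sdhaf2 (18.6 ± 0.710) and Sdhaf1 (9.33 ± 0.613) and overlapped in its range with Sdhaf3 (3.67 ± 0.210).

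The order of the leading subunits depended on the gene length used. The deposited FPKM of Sdha corresponds to a length of 747 bases, whereas the table lists 2900 bases for the gene. For Sdhc the lengths were 1416 and 3136 bases, for Sdhb 1146 and 1232, for Sdhaf3 2645 and 4323, and for Sdhaf4 555 and 683, and for the other 3 genes they were the same. Over all rows with more than 20 reads in a library, 38.8% had the same length within 1%. When the listed length was used, Sdhb was at 716 ± 32.5 CPM per kilobase and Sdha at 679 ± 15.4 in WT, with overlapping ranges, followed by Sdhd at 344 ± 14.99 and Sdhc at 142 ± 5.49. The same length per gene was used for WT and KO, so it does not touch the fold changes, which rest on counts. For Sdhaf4 the KO levels per length use the length of the gene with its floxed exons, which recombined alleles lack. These KO levels were not corrected for that.

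**Figure D4:**
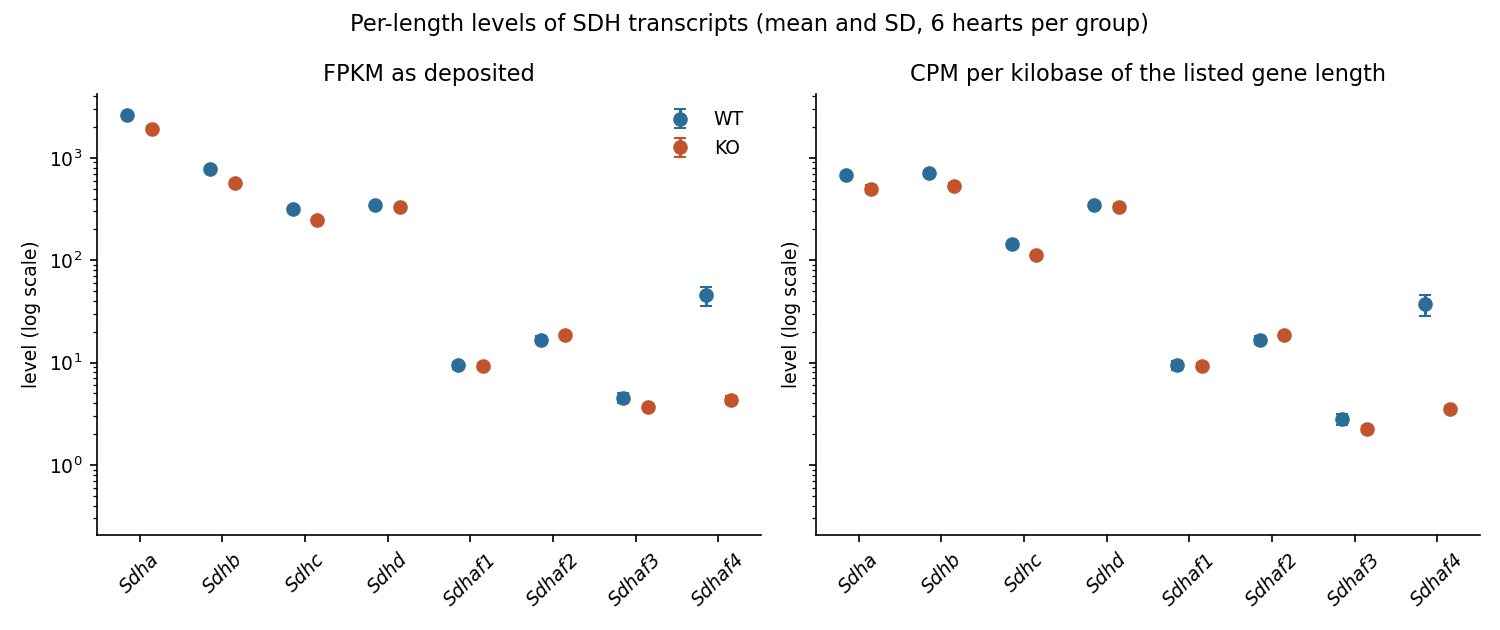
Level of each gene (y axis, log scale) in WT (blue) and KO (orange), as mean and SD over 6 hearts, in deposited FPKM (left) and in CPM per kilobase of the gene length listed in the table (right). Sdha leads on the left scale at 2634 FPKM in WT, and on the right scale it lies beside Sdhb, at 679 and 716 CPM per kilobase.

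The genes around succinate were examined next (12 of 13 tested, 7 lower and 2 higher, median log2 fold change -0.40, against a median of 0.00 over all rows). Among all rows tested, 25.5% were lower and 25.6% higher. Upstream of SDH, the 2-oxoglutarate dehydrogenase genes Ogdh and Dlst did not pass the test, with log2 fold changes of -0.06 and 0.03 (adjusted p = 0.472 and 0.729), while the related Ogdhl went from 289 to 120 CPM (-1.26). The subunits of succinyl-CoA ligase, which makes succinate, were lower, with log2 fold changes of -0.47 for Sucla2, -0.50 for Suclg1 and -0.68 for Suclg2. Downstream of SDH, the fumarate hydratase gene Fh1 was at 573 ± 23.4 CPM in WT and 343 ± 33.0 CPM in KO (log2 fold change -0.74; its span overlaps that of Kmo), and the malate dehydrogenase gene Mdh2 had one of -0.33. In the GABA branch, which also ends in succinate, Aldh5a1 was lower (-0.69, with 3 rows that overlap it), and Abat had a value of -0.27 that did not pass (adjusted p = 0.0845).

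The members of this list that were higher were the dicarboxylate carrier gene Slc25a10, from 12.2 ± 1.36 to 20.01 ± 2.15 CPM (log2 fold change 0.71, adjusted p = 4.77e-06), and the succinate receptor gene Sucnr1. Sucnr1 was near the floor of detection, at 0.206 ± 0.215 CPM in WT and 1.57 ± 0.746 CPM in KO (2.92, adjusted p = 0.000286). Acod1, which makes the SDH inhibitor itaconate, had 21 reads in all libraries together and was not tested.

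The genes that supply the cofactors of SDH were mixed, where 25.5% of all rows tested were lower and 25.6% higher. Whether the cofactor lists differ from these shares was not tested. Of the genes for flavin supply, 2 of 5 were lower at an adjusted p under 0.05 in edgeR, with log2 fold changes of -0.43 for the FAD synthase gene Flad1 and -0.19 for the riboflavin kinase gene Rfk. The mitochondrial folate and flavin carrier gene Slc25a32 and the riboflavin transporter gene Slc52a3 had values of 0.10 and 0.20 that did not pass (adjusted p = 0.204 and 0.581). Of the genes for iron-sulfur clusters, 8 of 13 tested were lower and the other 5 did not pass, with a median of -0.23. The cysteine desulfurase gene Nfs1 went from 79.7 ± 2.98 to 54.1 ± 4.07 CPM (log2 fold change -0.56), while Fdxr and Isca2 had values of 0.22 and 0.07 that did not pass (adjusted p = 0.0886 and 0.317).

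For heme, 5 of 10 genes were lower and 1 was higher, beside 25.5% and 25.6% of all rows tested. The median log2 fold change was -0.21. Alas1, the first enzyme of heme synthesis, rose from 74.7 ± 16.8 to 191 ± 13.1 CPM (1.35, adjusted p = 4.07e-07). The next steps went the other way, with values of -1.04 for Alad and -0.66 for Urod, and Abcb10 had a value of 0.01 that did not pass (adjusted p = 0.919). The span of Alas1 overlaps a row without a gene name, that of Flad1 overlaps Lenep, and that of Nfs1 overlaps Gm28036 and Romo1.

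Beside the other complexes of the respiratory chain, the median log2 fold change of the SDH subunits was -0.40. It was -0.44 for complex I, where 34 of 36 nuclear subunits tested were lower and 1 was higher. For complexes III, IV and V it was -0.43, and 34 of 38 were lower and 3 were higher. Among all rows tested, 25.5% were lower and 25.6% higher. Ndufa5 and Ndufs6 of complex I had values of -0.84 and -0.70, and Cox7a1 and Atp5g2 had values of -1.20 and -0.60. The list of complexes III, IV and V also holds Atpif1, which encodes an inhibitor of complex V and not a subunit. When the 78 genes of these lists were ordered from the most negative value, Sdha stood at 36, Sdhb at 40, Sdhc at 50 and Sdhd at 72. Sdhd was thus 1 of 7 genes of these lists that were not lower. The others were Atp5d (0.08, adjusted p = 0.186), Ndufa11 (0.11, adjusted p = 0.191), Cox8a (0.16), Ndufc2 (0.17), Atpif1 (0.23) and Cox6a1 (0.43). Of these the last 4 were higher at an adjusted p under 0.05 (edgeR). Cox6a2 (-0.68) and Cox8b (-0.72), which encode other isoforms of the subunits of Cox6a1 and Cox8a, were lower. Atp5d, Atpif1, Cox6a2 and Cox8b were named after their values were seen. The spans of Atp5d, Ndufc2 and Atpif1 overlap other rows.

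Reads on the 4 SDH subunits made up 6.53% ± 0.176 of the reads on all genes of these lists, Atpif1 included, in WT and 6.57% ± 0.0892 in KO (SD, n = 6 in each group). The difference was 0.04 percentage points (95% interval -0.14 to 0.21, two-sided exact permutation test, p = 0.662), a comparison chosen after the values were seen. The share of SDH in these transcripts therefore differed by less than the spread between hearts.

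Assembly factors of the other complexes were called in both directions. Over all rows tested, 25.5% were lower and 25.6% higher, and whether these factors differ from those shares was not tested. Of 40 tested, 16 were lower and 10 were higher, with a median of -0.12, beside 2 lower and 1 higher of the 4 SDH assembly factors. Without Sdhaf4, which was targeted, 1 of the remaining 3 was lower and 1 was higher, with a median of -0.01. The higher one was Sdhaf2, whose call was lost in several alternatives. Lyrm7, a factor of complex III, and Ecsit, a factor of complex I, had log2 fold changes of -0.88 and -0.58. Cox19 and Taco1, which act on complex IV, had values of 0.75 and 0.49. The spans of Ecsit and Taco1 overlap rows without a gene name.

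**Figure D5:**
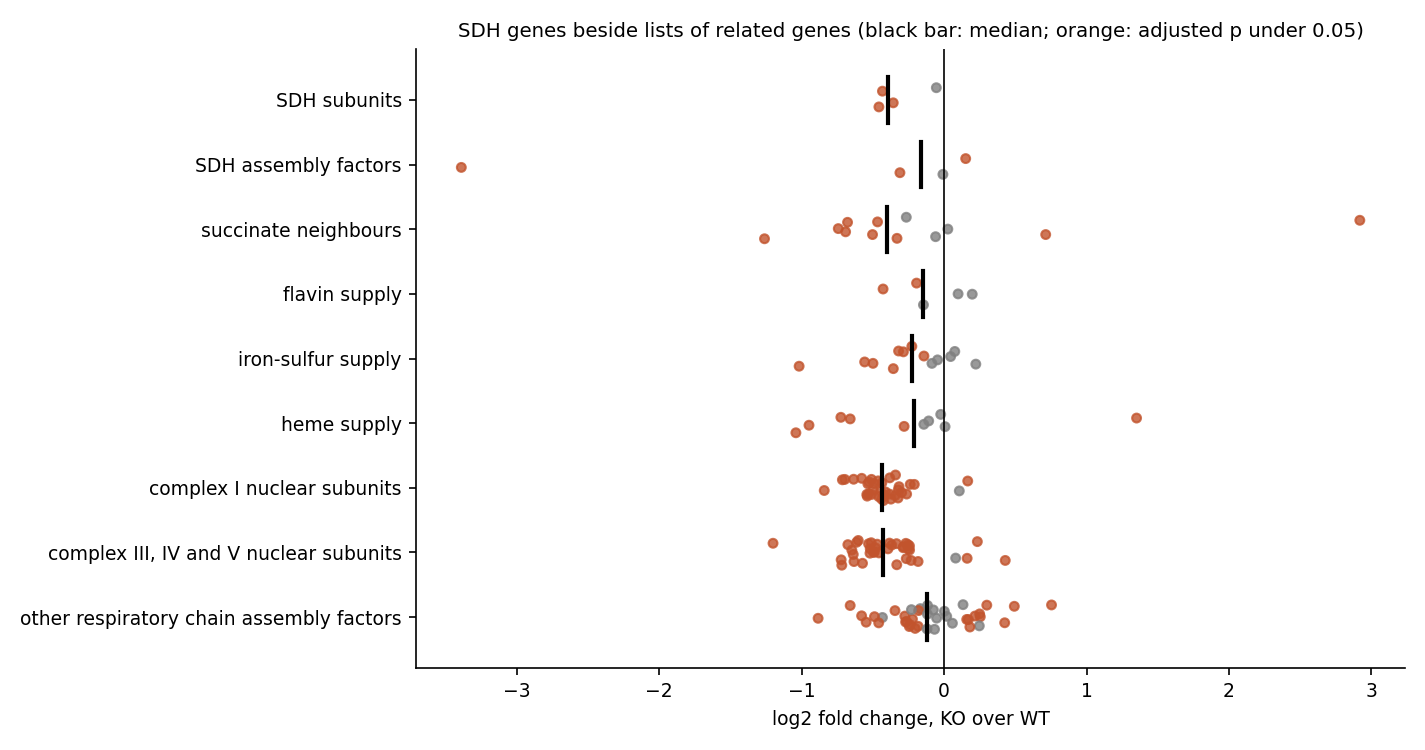
Log2 fold change of KO over WT (x axis) for each tested gene of the SDH subunits, the SDH assembly factors and the lists of related genes, with the median as a black bar; orange marks an adjusted p under 0.05. The medians are -0.40 for the SDH subunits, -0.44 for complex I and -0.43 for complexes III, IV and V.

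Some markers of cell types were called as well, where 25.5% of all rows tested were lower and 25.6% higher. Of the 12 cardiomyocyte markers tested, 6 were lower and 1 was higher, with a median log2 fold change of -0.25. Ckm (-0.95), Tnni3 (-0.89), Pln (-0.79), Ryr2 (-0.50), Myl2 (-0.31) and Myl3 (-0.30) were lower and Mybpc3 was higher (1.05), while Myh6 (-0.20), Ttn (-0.14), Actc1 (0.24), Tnnt2 (0.03) and Mb (0.02) did not pass. The summed level of these markers, 72155 CPM in WT and 65696 CPM in KO on average, overlapped between the groups. These genes, Mybpc3 and Tnnt2 aside, have spans that overlap another row.

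All 8 fibroblast markers were higher in KO, and their summed level went from 1420.1 to 1670.5 CPM in WT to 2584 to 4867 CPM in KO. Of the 7 endothelial markers 4 were higher and 1 lower (1391 to 1541 CPM in WT, 1593 to 1886 CPM in KO). Smooth muscle markers (272 to 429.5 CPM in WT, 275 to 389 CPM in KO; 1 of 5 higher, 2 lower) and macrophage markers (211 to 298 CPM in WT, 215 to 346 CPM in KO; 1 of 7 higher, 2 lower) overlapped in their sums. Over all rows tested, 25.5% were lower and 25.6% higher, and whether the marker lists differ from these shares was not tested. The 2 atrial markers tested, Myl4 and Nppa, of which Nppa is also known as a stress gene of the ventricle, were higher, with the sums given above. Of the erythroid list 2 of 5 genes were in the table, and neither passed (293 to 1012 CPM in WT, 615 to 1226 CPM in KO). None of the markers in the table was at 0 in all libraries. The part of these cell type markers in the values of the SDH genes was not tested.

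The genes next to the members on the chromosome were compared, and 7 of 16 were lower and 4 higher, with a median log2 fold change of -0.03. Of all rows tested, 25.5% were lower and 25.6% higher, and whether the neighbours differ from these shares was not tested. In 3 cases a member and its neighbour start head to head, Sdha with Ccdc127, Sdhd with Timm8b and Sdhaf2 with Cpsf7, with 28, 51 and 34 bases between the spans in the table. Timm8b, a small chaperone of mitochondrial import, was lower, from 99.9 ± 5.43 to 82.2 ± 2.72 CPM (log2 fold change -0.28, adjusted p = 7.54e-05), beside Sdhd, which did not pass. Ccdc127 did not pass (-0.10, adjusted p = 0.121), beside Sdha, which was lower, and neither did Cpsf7 (0.10, adjusted p = 0.174). The difference within a pair was not tested, and for Sdhaf2 (0.15) and Cpsf7 (0.10) the values were close and the call of Sdhaf2 was lost in 12 of 22 alternatives.

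The bases between the starts of each pair are shown because the 2 genes share them. They were read from RefSeq promoters of the mouse build GRCm38.p6, another assembly than that of the table, and each is given 5′ to 3′ on the strand of the SDH gene, the minus strand. The stretches lie at chr13:74350241-74350316 for Sdha, where RefSeq places 76 bases between the starts, at chr9:50603850-50603900 for Sdhd (51 bases) and at chr19:10525210-10525243 for Sdhaf2 (34 bases).
Sdha and Ccdc127: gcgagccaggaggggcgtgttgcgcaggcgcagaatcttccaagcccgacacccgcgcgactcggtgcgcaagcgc
Sdhd and Timm8b: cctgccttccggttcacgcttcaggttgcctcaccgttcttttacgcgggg
Sdhaf2 and Cpsf7: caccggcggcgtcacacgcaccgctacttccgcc
G and C make up 71.1%, 60.8% and 73.5% of these stretches.

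Of the other neighbours, Pcp4l1 beside Sdhc had the lowest adjusted p (log2 fold change -1.50, adjusted p = 6.11e-11), and Smap1, which precedes Sdhaf4 in the table's coordinates at a distance of 96993 bases, was higher (0.64, adjusted p = 1.28e-07). Fam135a, 5436 bases from the start of Sdhaf4, had a value of 0.03 (adjusted p = 0.668). The neighbours Syt7 (-0.50), Atp13a2 (-0.21), Cfap126 (-0.71), Bco2 (-1.57) and Tac1 (-1.31) were lower, and Pdcd6 (0.19), Alkbh6 (0.28) and Padi2 (0.92) were higher. Cfap126, Bco2, Tac1 and Padi2 were under 2 CPM in both groups. Lrfn3 and Shfm1 did not pass, with values of 0.32 and 0.03. A row without a gene name within the span of Sdha, on the other strand, had 6 reads in all.

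RefSeq promoters, from 250 bases before to 50 bases after the start, were at hand for 7 of the 8 members, all but Sdhc. They were searched on both strands for the letters of 5 motifs. The SP motif GGGCGG was present in 6 of the 7 and in 35.7% of all 32851 promoters. This motif holds only G and C, which made up 57.7% to 76.7% of the windows of the 7 members. The median over all promoters was 52.7%, and the part of base composition in the matches was not tested. The NRF1 core GCATGCGC was present in 1 of the 7, Sdhb, and in 2.71% of all promoters. The ERR motif AAGGTCA was present in 1 of the 7, Sdhd, after the start, and in 4.72% of all promoters. The ETS motif CCGGAAGT and the YY1 motif AAGATGGC were in none of the 7, and in 3.89% and 2.75% of all promoters. In the members no letters were shared between different motifs.

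The promoters of Sdhb, with the most matches among the subunits searched, and of Sdhaf4, the targeted gene, show these letters in place. The 250 bases before the start are given 5′ to 3′ on the strand of the gene, with the matches on either strand in capitals, at chr4:140961021-140961270 (plus strand) for Sdhb and at chr1:24005641-24005890 (minus strand) for Sdhaf4 in GRCm38.p6.
Sdhb: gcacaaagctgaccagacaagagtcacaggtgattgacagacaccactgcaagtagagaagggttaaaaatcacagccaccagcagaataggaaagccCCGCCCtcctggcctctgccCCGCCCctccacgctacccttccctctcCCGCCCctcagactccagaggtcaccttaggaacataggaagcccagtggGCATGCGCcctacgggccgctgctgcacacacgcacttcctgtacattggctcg
Sdhaf4: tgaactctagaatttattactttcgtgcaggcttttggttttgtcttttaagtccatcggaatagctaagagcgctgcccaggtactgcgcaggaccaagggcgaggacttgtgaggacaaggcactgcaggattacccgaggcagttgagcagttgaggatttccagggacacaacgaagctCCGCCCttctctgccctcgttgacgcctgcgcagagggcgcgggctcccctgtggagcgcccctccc
In Sdhb the capitals mark 3 SP motifs on the strand opposite to the gene, which begin 152, 132 and 104 bases before the start, and the NRF1 core, which begins 54 bases before it. In Sdhaf4 they mark 1 SP motif on the opposite strand, which begins 67 bases before the start.

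Lastly, the rows whose values over the 12 hearts were most like those of each member were taken, by the root mean square of the difference in log2 CPM, each gene being set relative to its own WT mean. This measure is a description over the 10044 named rows that averaged 5 CPM or more, and it reads the difference between the genotypes as well as the spread within them. Among the rows nearest to Sdha were Pccb (0.04) and Cox4i1 (0.05), which encode a subunit of propionyl-CoA carboxylase and a subunit of complex IV. Nearest to Sdhb were Mpc2 (0.03), Ndufs7 (0.04) and Cox4i1 (0.04), and Mpc2 encodes a subunit of the mitochondrial pyruvate carrier. Nearest to Sdhc were Ccdc12 (0.03), Prdx2 (0.03) and Phb2 (0.04). Sdhb ranked 5 for Sdha at a distance of 0.05, and Sdhc ranked 39 for Sdhb at 0.07. Sdhd ranked 3269 for Sdha at 0.29.

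The rows nearest to Sdhd were Glo1 (0.04), Gga3 (0.05) and Ppm1a (0.05), with adjusted p-values in edgeR between 0.121 and 0.814. Those nearest to Sdhaf1 were C87436 (0.06), Snapin (0.07) and Rdh14 (0.07), to Sdhaf2 Tlk2 (0.06), Cyb5b (0.06) and Mbtps1 (0.06), and to Sdhaf3 Timm23 (0.08), Abhd12 (0.08) and Cd3eap (0.09). Nothing came as close to Sdhaf4, whose nearest rows were Rpl3l (0.23), Ehhadh (0.35) and Tmod4 (0.37), with log2 fold changes of -3.22, -3.07 and -3.47.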

How the data were processed

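RNA of 12 hearts was sequenced after the authors purified poly-A mRNA and made libraries with the Illumina TruSeq RNA kit. Per the submitters' processing notes, HISAT2 2.0.5 and mm10 were used, whereas the deposited identifiers belong to the C57BL/6NJ assembly, so table coordinates are kept apart from GRCm38.p6. The authors counted reads per gene with HTSeq and deposited raw counts, and the authors computed FPKM from counts, a gene length and the library total. The authors' DESeq log2 fold changes and p-values and the deposited group means of scaled counts (a signal) were not used.

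Counts (23747014 to 31393393 per library) were analysed with edgeR 4.0.16 in R 4.3.3: filterByExpr, TMM, quasi-likelihood test with robust dispersions, Benjamini-Hochberg adjustment over 17155 rows. CPM uses TMM-scaled totals, and standard errors were derived from the F statistic. The analysis was tested on simulated data with a fixed dispersion and changes larger than those of every member but Sdhaf4. That test therefore does not bear on the smaller calls. Exact permutation tests (scipy 1.17.1) ran over the 924 splits of 6 and 6, and intervals of ratios come from inverting them. The labels give no litter or day, so p-values measure the spread between these samples. Chi-square per degree of freedom between replicates of a genotype was 6.99 to 48.6, and none were merged.

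The members, lists and tests were chosen with earlier results of these data known. Named are all members, their neighbours and overlapping rows, the succinate genes, the 2 genes with the smallest p per direction of each other list, the cardiomyocyte markers and the 3 rows nearest to each member; a few genes that this rule names are not reported here. Alternatives were other scalings (DESeq2 size factors, totals, upper quartile), tests (DESeq2 1.42.0, limma-voom with limma 3.58.1, edgeR without robust dispersions, glmTreat), filters, a replicate block and each library left out.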

Additional observations from a re-analysis of the deposited data

Results flagged for a closer look

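In 28 groups of 6 values examined (8 genes and 6 subunit ratios in each genotype), 1 held an outlying library by Dixon's test at the 95% level, where chance gives about 1.4 such groups. This was Sdhaf4 in KO replicate 1, at 2.73 CPM, the other KO hearts being between 2.25 and 2.41 CPM. The counts behind these values are 85 reads in KO replicate 1 (95% Wilson interval 2.24 to 3.43 CPM on the library total, counting error only) and 63 to 71 in the others. The result turns with the scaling, in a comparison added after seeing the data. With TMM factors the gap of KO replicate 1 to the next heart was 0.659 of the range of its group, past the critical value, and that of WT replicate 6 (14.3 CPM) was 0.611, under it. With library totals alone, and likewise in the deposited FPKM, the gap of KO replicate 1 was 0.602, under it, and that of WT replicate 6 was 0.647, past it.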

How the results depend on the processing

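The calls of Sdha, Sdhb, Sdhc, Sdhaf3 and Sdhaf4, and the absence of a call for Sdhd and Sdhaf1, were the same in the 22 alternatives, so the count of members lower in KO stayed at 5 and that past both thresholds at 1. Log2 fold changes ranged from -0.51 to -0.43 for Sdha, from -0.47 to -0.41 for Sdhb, from -0.38 to -0.34 for Sdhc, from -0.35 to -0.26 for Sdhaf3 and from -3.51 to -3.34 for Sdhaf4. The count of members higher in KO, Sdhaf2 alone, was 0 with upper quartile factors (adjusted p = 0.058 in edgeR), with no filter on low counts (0.0542), without loci that have no gene name (0.051) and with the replicate block (0.0572). With each library left out in turn it ranged from 0 to 1, with 0 in 8 of 12 fits, those without WT replicates 1, 2, 3, 5 or 6 or KO replicates 2, 3 or 5. The adjusted p of Sdhaf2 ranged from 0.00541 to 0.0926 over its alternatives. The cause was not tested.

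The replicate numbers do not pair the hearts: the correlation of deviations of same-numbered hearts lay between -0.16 and 0.02, and 1 of 6 WT hearts correlated best with its own number. With the replicate block, 4110 rows were lower and 4123 higher, against 4376 and 4391 without it, and Sdhaf2 was the member whose call it changed. With each library left out in turn, an alternative chosen after seeing the data for the ratios and the share of SDH, the log2 ratios over Sdhd stayed between -0.43 and -0.28 (adjusted p at most 0.00866, exact permutation test) and those over Sdhc between -0.12 and -0.06 (at most 0.0416). The ratio of Sdha to Sdhb and the share of SDH, whose difference lay between -0.01 and 0.09 percentage points, passed in none of these fits (adjusted p at least 0.173 and 0.264). Levels in FPKM moved by less than 1 SD in each of the 96 means that left out 1 heart. With 6 hearts in a group this is bound to hold, so it says nothing about how stable the levels are. The shallowest values were those of Sdhaf4 in KO, with 63 to 85 reads.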
